A study of Mus musculus with 38 samples.

Results

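The comparison described here is that of anle138b with placebo in wild-type (WT) mice at 10 months of age, the WT arm of the post-plaque group. Its members are the 10 WT mice of that age among 38 mice in all: 5 had eaten placebo chow and 5 had eaten chow with anle138b. Membership is set by the genotype, age and chow given in the sample labels and uses no measured value. RNA was sequenced from the hippocampus of each mouse, a brain region needed for spatial learning. The other mice of the series were APPPS1ΔE9 mice, a transgenic model of amyloid pathology, and a younger cohort analysed at 6 months. All 10 mice were C57BL/6 with no transgene, and all ate the experimental chow from month 6 for 4 months. The anle138b chow held 2 g of compound per kg of food, and the placebo chow was the same food without it. The placebo mice carry the numbers 52 to 56 and the anle138b mice the numbers 60 to 64, each library being 1 animal.

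Anle138b is an orally available diphenyl-pyrazole that modulates the aggregation of proteins such as prion protein and amyloid-β. WT mice carry no amyloid plaques, so in these animals the comparison asks what the compound does to hippocampal gene expression when that target pathology is missing. The hippocampus is not uniform. Its dentate gyrus holds granule cells, its CA fields hold pyramidal cells, and both change their gene expression from the dorsal to the ventral pole. White matter tracts rich in myelin run along it, the choroid plexus, which makes cerebrospinal fluid, lies against it, and the pituitary gland lies below the brain outside it.

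Total counts of the 10 mice lay between 15847985 and 27273116, with a median of 24620343, and mouse 52 had the lowest total. Mean totals were 23150000 ± 4350900 (SD, n = 5) on placebo and 25138000 ± 1347700 (SD, n = 5) on anle138b, a difference within the spread (exact permutation test, two-sided, p = 0.444, with 0.0079 the smallest p that 5 against 5 mice allow). Every pair of libraries within a group differed by more than counting noise. The lane written in the labels followed chow almost completely: placebo mice 52, 53, 54 and 55 were in lane 3, whereas placebo mouse 56 and all 5 anle138b mice were in lane 4. Lane and chow can therefore be compared separately only through mouse 56. The methods of the study describe the mice as male. Xist, the RNA of the inactive X chromosome, was at 1234 to 1450 counts in every 1000000 (CPM) in placebo mice 52, 54 and 55 and in anle138b mice 62, 63 and 64, where the Y-linked genes together reached no more than 1.88 CPM. Mice 53, 56, 60 and 61 showed the reverse, with Xist not above 2.13 CPM and 180.6 to 380.8 CPM summed over the Y-linked genes. Thus 6 of the 10 libraries, 3 of 5 in each group, went against the stated sex.

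The chow comparison gave no gene past the threshold. With edgeR's quasi-likelihood test, 0 of 16986 tested genes (0%) had a Benjamini-Hochberg adjusted p under 0.1, 212 genes (1.25%) had an unadjusted p under 0.05, and the smallest adjusted p rounded to 1. Of those 212, 104 genes (0.612% of all tested) were higher and the others (0.636%) were lower in anle138b-treated mice. DESeq2 also called 0 genes, with 146 at an unadjusted p under 0.05, and limma voom with quality weights called 0, with 2676. The median log2 fold change over all tested genes was 0.00029, and 50.2% of them were higher on anle138b. For 45 genes (0.265%) the placebo and anle138b values did not overlap. Taking Y-linked expression as a covariate gave 0 calls and 209 genes at an unadjusted p under 0.05.

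The data bounded the size of the difference for most genes. The 95% confidence interval of the log2 fold change lay inside ±1 for 15672 genes (92.3%) and inside ±0.5 for 11663 (68.7%), and the median distance from the estimate to the end of its interval was 0.247. For the 10198 genes at 10 CPM or more on average, the shares were 98.1% and 89.2%. A larger change than 2-fold was thus outside the interval for most expressed genes, while smaller changes were not detectable for many of them.

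**Figure D1:**
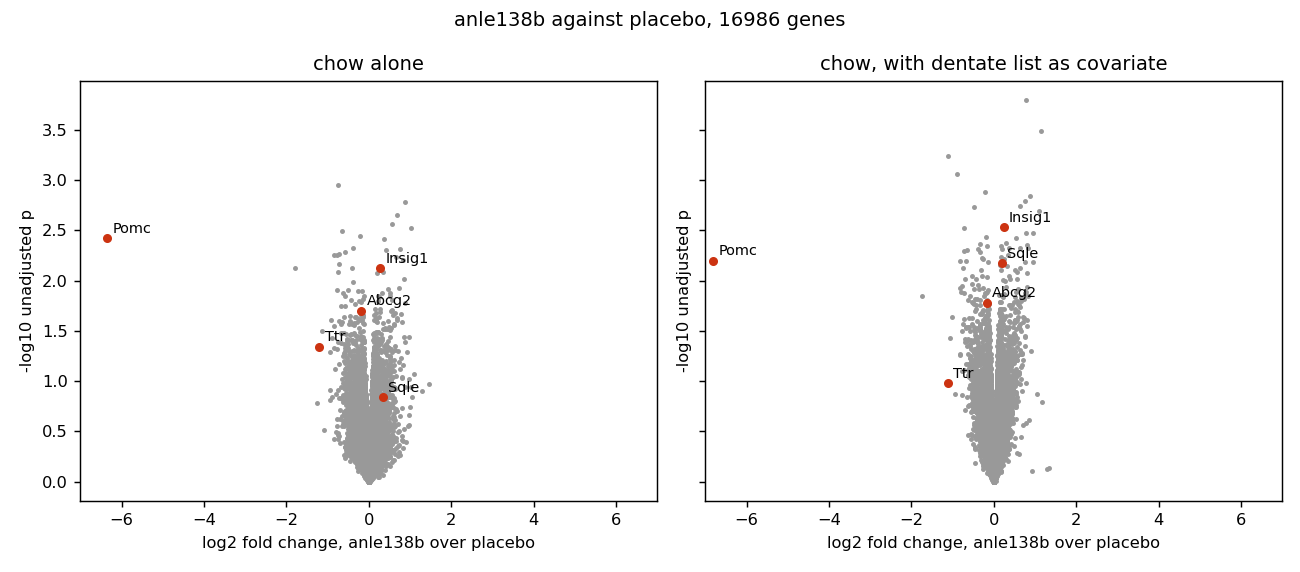
Each point is 1 of 16986 genes, with the log2 fold change of anle138b over placebo on the horizontal axis and the -log10 of the unadjusted p on the vertical axis, without a covariate at left and with the dentate granule cell list as covariate at right. Red points are named list members. Pomc stands alone far to the left, at -6.35 and -6.82, and no gene of either panel passed the adjusted threshold.

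Within each chow group the mice differed strongly from each other. In a principal component analysis of the deviations from the group means over 15025 genes at 1 CPM or more, the first component held 64.4% of the within-group variance, the second 13.5% and the third 5.48%. Mice 53, 54, 56, 62 and 64 had positive scores on the first component and mice 52, 55, 60, 61 and 63 negative ones. Both kinds of score occurred on both chows, in 3 and 2 placebo mice and in 2 and 3 anle138b mice. The second component had its largest loadings on sex-linked genes, 0.355 for Xist and -0.333 for Eif2s3y. Its scores were negative in mice 53, 56, 60 and 61, the mice with Y-linked RNA, and positive in the others. For 442 of the 15025 genes the highest mouse was more than 4 times the lowest. Since the split on the first component was read from the outcome, no test compares these sets of mice below. Their values are given for each mouse or as the range of each set, as a description only.

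Genes with large loadings on that component included genes of the dentate gyrus and of the 2 poles of the long axis of the hippocampus. Lct, lactase, which marks dorsal granule cells, lay at 12.7, 124, 124, 9.79 and 143 CPM in placebo mice 52 to 56 and at 7.84, 16.4, 130, 5.95 and 117 CPM in anle138b mice 60 to 64. Mice 53, 54, 56, 62 and 64 were high and the other 5 low, with no value in between. Trhr, the thyrotropin-releasing hormone receptor, which marks ventral granule cells, lay at 20.8, 0.863, 0.882, 19.2 and 0.879 CPM on placebo and at 19.7, 8.90, 1.14, 19.6 and 0.806 CPM on anle138b. It was high exactly in the mice in which Lct was low. Both genes differed between the chows by less than their standard error, with a log2 fold change of -0.58 (SE 1.002) for Lct and of 0.26 (SE 1.11) for Trhr.

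Other genes known to differ along the long axis divided the mice in the same way, although the order within each set of 5 was not shared. Among the 5 mice with low Lct, for example, mouse 63 had the lowest Lct, at 5.95 CPM, and the highest Wfs1, at 128 CPM. Wfs1, wolframin, strongest in dorsal CA1, was 164 to 205 CPM in mice 53, 54, 56, 62 and 64 and 51.4 to 128 CPM in the others. Grp, gastrin-releasing peptide, was 1.65 to 3.75 CPM in the first 5 mice and 29.97 to 59.6 CPM in the others. Calb2, calretinin, present in ventral mossy cells, was 5.77 to 19.4 CPM against 50.0 to 84.4 CPM. Htr2c, a serotonin receptor of ventral CA1, was 10.0 to 13.5 CPM against 71.6 to 95.2 CPM. These 6 long-axis genes were chosen after the values had been seen.

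**Figure D2:**
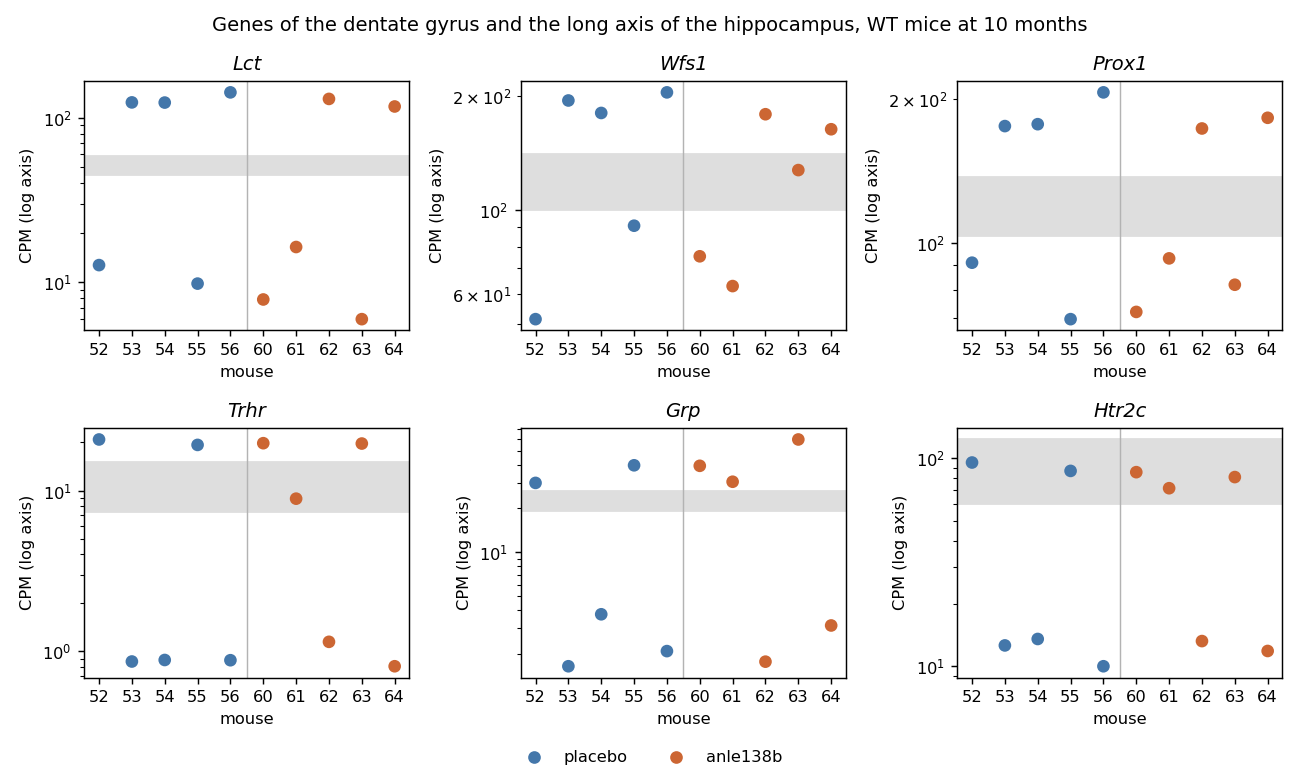
Each panel shows the level of 1 gene in CPM on a log axis for the 10 mice, placebo in blue at left and anle138b in orange at right, and the grey band is the range of the 8 WT mice at 6 months. Lct, Wfs1 and Prox1 are high in mice 53, 54, 56, 62 and 64, and Trhr, Grp and Htr2c are high in the other 5.

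Further genes with this division are given as a description only, since they were taken for a large loading on the first component or a large spread between mice of a group. Tacr3, the neurokinin B receptor, was 2.40 to 8.04 CPM in mice 52, 55, 60, 61 and 63 and at most 0.147 CPM in the others. Dio3, which inactivates thyroid hormone, was 2.21 to 11.2 CPM against 0.111 to 0.377 CPM, and Dlk1, an imprinted Notch ligand relative, was 15.1 to 47.7 CPM against 0.670 to 2.04 CPM. Adcyap1, the neuropeptide PACAP, was 4.41 to 14.5 CPM against 0.753 to 1.40 CPM. In the opposite direction, Robo3, an axon guidance receptor, was 62.02 to 74.7 CPM in mice 53, 54, 56, 62 and 64 and 7.28 to 12.7 CPM in the others. Mouse 61 was often the nearest to the middle, with Trhr at 8.90 CPM and Dio3 at 2.21 CPM, below the other 4 mice in which these genes were high.

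Markers of the granule cell layer followed the same mice. Prox1, the transcription factor that sets granule cell identity, was 91.2, 175, 177, 69.6 and 206 CPM in placebo mice 52 to 56 and 72.0, 93.1, 173, 82.0 and 182 CPM in anle138b mice 60 to 64. Dsp, desmoplakin, was 13.1 to 37.9 CPM in mice 52, 55, 60, 61 and 63 and 117 to 160 CPM in the others. The mean log2 CPM of the 7 granule cell genes spanned a 4.25-fold range over the 10 mice, and that of 12 CA1 to CA3 pyramidal cell genes a 2.05-fold range. The granule cell list includes Lct and Dsp, so its score, used below as a covariate, also holds a marker of the dorsal pole. All 7 granule cell genes were lower on anle138b (median log2 fold change -0.30), with 0 genes at an unadjusted p under 0.05, beside 49.8% of all tested genes lower. With 1 mouse left out at a time that median ran from -0.59, without mouse 64, to -0.13, without mouse 56. Of the 12 pyramidal cell genes, 8 were higher in every mouse with high Prox1 than in any other mouse, and 2 were lower in every such mouse. The latter were Fibcd1, a CA1 marker, at 145 to 161 CPM where Prox1 was high and 192 to 248 CPM where it was low, and Mpped1, at 180.4 to 207 CPM against 235.5 to 300.2 CPM. Amigo2, at 32.9 to 45.97 CPM, and Coch, at 2.96 to 10.7 CPM, overlapped between these mice. The division of the mice was read from the outcome, and the share of all genes that divide in this way is not given. These counts are therefore a description only and no result about pyramidal cells. In bulk RNA, fewer cells of a type and less RNA per cell cannot be told apart.

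Among other mice of the series, with levels normalized over all 38 mice, Lct, Trhr and the granule cell list had a narrower range at 6 months. In the 8 WT mice of that age Lct was 45.1 to 58.8 CPM and Trhr 7.36 to 15.1 CPM, between the 2 sets of values at 10 months. In the 12 APPPS1ΔE9 mice at 10 months Lct ran from 2.61 to 140 CPM and Trhr from 0.626 to 16.8 CPM. Both ranges were wide too. The granule cell list score ran from 5.48 to 5.74 log2 CPM in the 6-month WT mice on anle138b and from 5.52 to 5.70 on placebo, against 4.37 to 6.23 and 4.39 to 6.46 at 10 months. In the 12 APPPS1ΔE9 mice at 10 months it ran from 3.61 to 6.31, a wider range than in either WT group. The choroid plexus score had its wider range at 6 months, 4.14 log2 units in the 8 WT mice. In the 10-month WT mice that score spanned 1.44 on anle138b and 1.40 on placebo. The sources used here do not give which part of the hippocampus was taken from each mouse, and its part in these values was not tested.

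Myelin genes varied in the same mice. Mbp, myelin basic protein, was 1366, 3487, 2833, 1366 and 2416 CPM in placebo mice 52 to 56 and 1330, 1746, 3191, 1019 and 2920 CPM in anle138b mice 60 to 64. It was high in mice 53, 54, 56, 62 and 64 and lower in the others, and the chow groups overlapped. Mag, a glycoprotein at the axon contact, ran from 74.5 to 241 CPM. The summed picture of 21 myelin genes, their mean log2 CPM, spanned a 2.88-fold range.

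Between the chows the myelin list did not separate. All 21 genes lay below placebo (median log2 fold change -0.09), beside 49.8% of all tested genes lower. Of the 21, 0 were at an unadjusted p under 0.05, beside 0.636% of all genes lower at that threshold. With the granule cell list as a covariate, chosen after seeing the data, all 21 were higher, with a median of 0.09, beside 50.1% of all genes higher in that fit, again with 0 genes at that threshold. The direction of the myelin list also turned when mouse 53 was left out, with a median of 0.09. Mbp had a log2 fold change of -0.17 (SE 0.37) without the covariate. By contrast, 8 genes of oligodendrocyte precursors had list scores within a 1.33-fold range, and 9 astrocyte genes within a 1.13-fold range over the 10 mice. At 6 months the myelin score of WT mice was 6.20 to 6.60 log2 CPM, within the 5.24 to 6.76 of the 10-month WT mice.

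**Figure D3:**
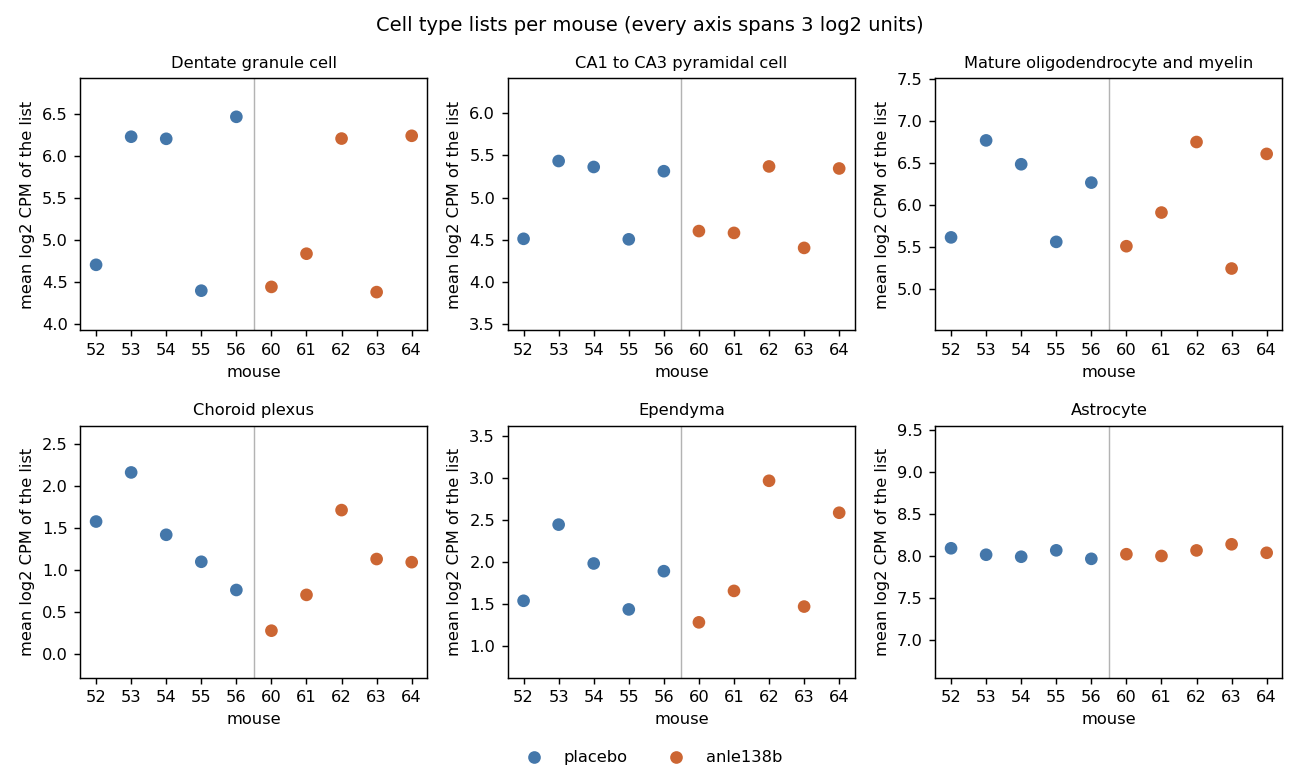
Each panel shows the mean log2 CPM of a cell type list in each of the 10 mice, placebo in blue and anle138b in orange, with every vertical axis spanning the same 3 log2 units. Granule cell, pyramidal cell, myelin and ependyma scores are high in mice 53, 54, 56, 62 and 64, choroid plexus scores are ordered otherwise, and astrocyte scores are nearly level.

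RNA of anterior pituitary hormones was present in the placebo mice of lane 3. Gh, growth hormone, was 108.7, 5.73, 0.588, 3.45 and 0.0837 CPM in placebo mice 52 to 56, from 1730, 146, 16, 80 and 2 counts. In the 5 anle138b mice it had 1 count in all, in mouse 61. Prl, prolactin, was 341, 15.2, 1.43, 8.84 and 0.167 CPM in placebo mice 52 to 56 and 0 to 0.255 CPM in the anle138b mice. Pomc, the precursor of corticotropin, was 313, 9.49, 1.25, 12.3 and 1.21 CPM on placebo and 0.490, 0.670, 0.738, 0.965 and 1.23 CPM on anle138b. Mouse 52 was highest for all 3 genes, mice 53 and 55 followed, and the anle138b mice resembled placebo mouse 56, the placebo mouse sequenced in their lane.

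Ratios of hormone transcripts could be taken in the 4 mice with more than 3 Gh counts. Prl counts per Gh count were 3.13, 2.66, 2.44 and 2.56 in mice 52 to 55, and Pomc counts per Gh count were 2.88, 1.66, 2.12 and 3.58. Of 12 anterior pituitary genes, 2 passed the filter on low counts, Pomc and Tshb, so that Gh and Prl have no test of the chow comparison. Pomc had a log2 fold change of -6.35 (SE 1.71, 95% interval -10.14 to -2.56) and was among the genes at an unadjusted p under 0.05, with an adjusted p of 1 (edgeR). Without mouse 52 it was -2.89, and within lane 4, against mouse 56 alone, it was -0.57. Tshb, the thyrotropin subunit, was 0.586 to 2.21 CPM in all 10 mice, with a log2 fold change of 0.27. Among hypothalamic genes, 10 of 11 were found and 4 were tested, and 0 of them reached an unadjusted p under 0.05.

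The same hormones were not limited to the placebo chow or to this age. An anle138b-treated WT mouse at 6 months had Gh at 67.7 CPM and Prl at 241 CPM, whereas the 12 APPPS1ΔE9 mice at 10 months reached at most 2.77 CPM of Gh and 1.16 CPM of Prl. In the 10 mice, lane, chow and the presence of hormone RNA cannot be told apart.

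**Figure D4:**
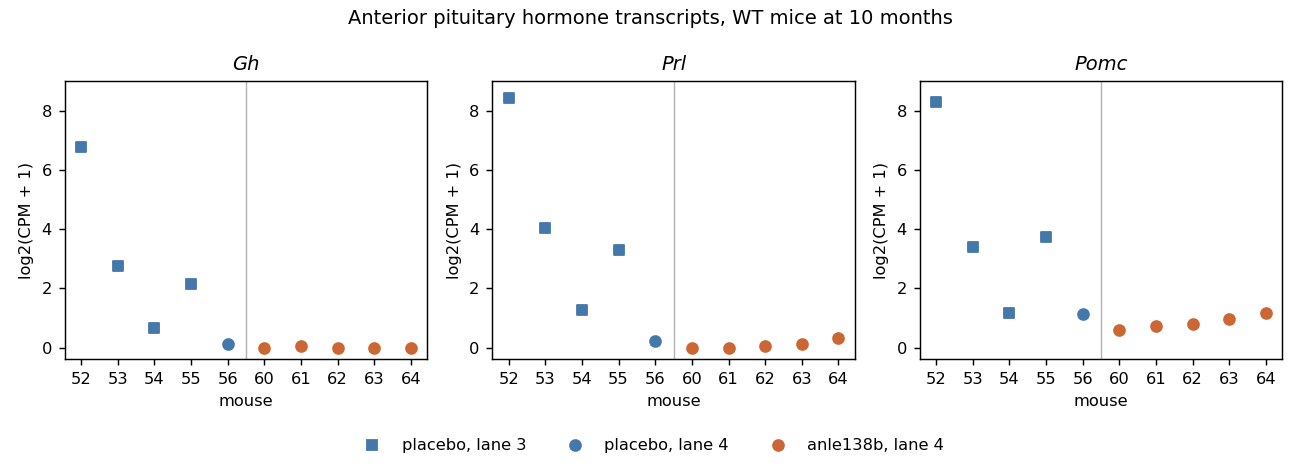
Each panel shows log2(CPM + 1) of a pituitary hormone gene in the 10 mice, squares for lane 3 and circles for lane 4, placebo in blue and anle138b in orange. Mouse 52 is highest in all 3 panels, and all lane 4 mice lie near 0 for Gh and Prl.

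The promoter of Prl is shown as that of a hormone gene found in the placebo mice of lane 3, although Prl itself was not tested between the chows. The sequence covers the 250 bases before the start site, from RefSeq, GRCm38.p6, chr13:27057320-27057569, plus strand. Prl is driven in pituitary cells by the transcription factor Pit-1, and capitals mark the motif ATGNATA on either strand, 148 and 47 bases before the start site. The motif occurs in 7.92% of 32851 promoter windows of this length, and a match is a description only.
Prl: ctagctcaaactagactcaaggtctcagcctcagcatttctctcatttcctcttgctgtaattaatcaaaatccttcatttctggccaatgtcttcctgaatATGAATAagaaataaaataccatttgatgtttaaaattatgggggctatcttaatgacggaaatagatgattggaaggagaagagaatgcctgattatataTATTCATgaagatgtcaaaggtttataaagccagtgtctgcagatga

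Choroid plexus genes varied between the mice in another order. Ttr, transthyretin, the main secreted protein of that tissue, was 103, 242, 119, 83.5 and 28.1 CPM in placebo mice 52 to 56 and 20.5, 32.4, 93.6, 57.1 and 45.7 CPM in anle138b mice 60 to 64. Placebo mouse 53 was highest and anle138b mouse 60 lowest. The groups overlapped, with placebo mouse 56 or without it. Anle138b mouse 62, at 93.6 CPM, lay above the placebo value of 83.5 CPM. Ttr had a log2 fold change of -1.21 (SE 0.53, 95% interval -2.38 to -0.03) and Slc4a5, a bicarbonate transporter, of -1.15 (SE 0.47). Of 15 tested choroid plexus genes 14 were lower on anle138b and 2 were at an unadjusted p under 0.05, beside 0.636% of all genes lower at that threshold, with a list median of -0.34. That median rested in part on single mice: it was -0.15 without mouse 53 and -0.70 without mouse 62. Within lane 4 alone, against mouse 56, the direction turned: 12 of the 15 genes were higher, with a median of 0.14. In the 8 WT mice at 6 months Ttr ran from 139 to 7509 CPM.

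Ependymal genes of the ventricle wall all lay higher on anle138b, 6 of 6, beside 50.2% of all genes. None of the 6 reached an unadjusted p under 0.05, and the list median was 0.27. Anle138b mouse 62 was highest for Ccdc153, at 12.3 CPM against 2.74 to 8.87 CPM in the other 9 mice. Without mouse 62 the list median was -0.16, so that its direction rested on this mouse. With the granule cell list as a covariate 3 of the 6 genes were at an unadjusted p under 0.05, beside 1.21% of all genes higher at that threshold.

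In the cholesterol synthesis list every tested gene lay higher on anle138b, without passing the adjusted threshold. Cells make cholesterol by the mevalonate pathway, whose genes are switched on together by the transcription factor SREBP-2 when membrane sterols are low. The list held 13 such genes, beside 50.2% of all genes higher, with a median log2 fold change of 0.26 against 0.00029 over all genes. Insig1 was 1 of 2 members with an unadjusted p under 0.05, beside 0.612% of all genes higher at that threshold. Insig1, which retains the SREBP complex in the endoplasmic reticulum, was 40.2, 33.5, 35.7, 34.2 and 34.02 CPM in placebo mice 52 to 56 and 43.3, 43.3, 42.0, 49.8 and 36.2 CPM in anle138b mice 60 to 64. Only mouse 64 lay among the placebo values, below placebo mouse 52, and the log2 fold change was 0.27 (SE 0.08, 95% interval 0.09 to 0.46).

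Among the sets of mice given here, Insig1 had its lowest range in the placebo WT mice at 10 months. With levels normalized over all 38 mice, Insig1 was 33.2 to 39.9 CPM in them (n = 5) and 35.9 to 49.4 CPM in the anle138b-treated WT mice at 10 months (n = 5). It was 42.6 to 48.9 CPM in the placebo APPPS1ΔE9 mice at 10 months (n = 5), 36.2 to 52.4 CPM in those on anle138b (n = 7) and 41.8 to 53.1 CPM in the 16 mice at 6 months. The median of Hmgcs1, the synthase at the head of the pathway, was 156 CPM in the placebo WT mice at 10 months, 223 CPM in the anle138b-treated ones, 222 CPM in the placebo APPPS1ΔE9 mice at 10 months and 255 CPM at 6 months. The low Hmgcs1 median did not hold for every placebo mouse. Placebo mouse 52, with low Prox1, had 3847 Hmgcs1 counts in a total of 15847985, and placebo mouse 53, with high Prox1, had 3927 in 25260016. Anle138b mouse 64, with high Prox1, had 3721 in 23515848. Mice with low Prox1 were more numerous on anle138b than on placebo. These levels were not tested against each other.

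The enzymes of the pathway varied between the mice within each chow. Sqle, squalene epoxidase, was 62.8, 38.6, 40.7, 67.0 and 41.9 CPM on placebo and 68.7, 68.9, 49.2, 87.2 and 44.4 CPM on anle138b. It was higher in mice 52, 55, 60, 61 and 63, the mice in which Prox1 and Mbp were low, and mouse 63 was highest of all. Hmgcs1 had a log2 fold change of 0.26 (SE 0.18). With the granule cell list as a covariate, chosen after seeing the data, all 13 genes were again higher and 7 were at an unadjusted p under 0.05, beside 1.21% of all genes, while the list median fell to 0.14. Sqle then had a log2 fold change of 0.19 (SE 0.06) and Insig1 of 0.24 (SE 0.07), and 0 of 16986 genes passed the adjusted threshold in that fit, with 415 at an unadjusted p under 0.05 (2.44%). With 1 mouse left out at a time the median of the list lay between 0.15, without mouse 63, and 0.34, without mouse 64, and 13 of 13 genes stayed higher. Within lane 4 alone 13 of 13 were higher, with a median of 0.44, but the placebo side was then mouse 56 alone, which had the highest Prox1 of the 10 mice and Sqle at 41.9 CPM, whereas 3 of the 5 anle138b mice were among those with low Prox1. In lane 4, chow and this difference between the mice cannot be told apart.

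Promoter sequence before the start site is shown for 2 of these genes, Hmgcs1 because it carries the sterol regulatory element and Insig1 because its p was the smallest of the list. The letters TCACNCCAC, searched on both strands as the sterol regulatory element, were found in 1.05% of 32851 RefSeq windows of 250 bases and in 1 of the 8 cholesterol synthesis genes that the table holds. The letters CACGTG, an E-box, which reads the same on both strands, were found in 6.02% of windows. Both sequences are from GRCm38.p6, plus strand, with the motif in capitals: chr13:119690101-119690350 for Hmgcs1, with the element 137 bases before the start site, and chr5:28071162-28071411 for Insig1, with the E-box 101 bases before it. A match describes the letters only.
Hmgcs1: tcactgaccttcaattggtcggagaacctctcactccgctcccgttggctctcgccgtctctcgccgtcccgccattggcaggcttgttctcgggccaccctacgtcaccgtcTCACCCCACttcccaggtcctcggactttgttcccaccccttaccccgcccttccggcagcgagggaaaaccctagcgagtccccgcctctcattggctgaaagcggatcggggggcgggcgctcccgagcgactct
Insig1: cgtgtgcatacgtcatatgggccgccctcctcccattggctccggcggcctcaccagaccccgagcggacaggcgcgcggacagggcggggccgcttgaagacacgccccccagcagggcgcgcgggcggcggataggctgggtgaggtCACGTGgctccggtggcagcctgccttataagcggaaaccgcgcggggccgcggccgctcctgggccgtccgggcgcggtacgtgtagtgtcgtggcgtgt

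Other lists of genes that could respond to a drug moved little. Of 15 drug metabolism and transport genes 14 were lower (median log2 fold change -0.06), beside 49.8% of all genes. Of these, 2 were at an unadjusted p under 0.05, beside 0.636% of all genes. Abcg2, an efflux transporter of the blood-brain barrier, was 21.1 to 23.1 CPM on placebo and 17.4 to 21.9 CPM on anle138b, with a log2 fold change of -0.19 (SE 0.07). Sult1a1, a sulfotransferase, had -0.24 (SE 0.11). Of 6 tested targets of the aryl hydrocarbon receptor, a sensor of planar aromatic compounds, 1 was higher and 0 were at that threshold, and Cyp1a1, its most inducible target, was at most 0.275 CPM in every mouse. Among 12 NRF2 targets, which answer to oxidative stress, 4 were higher and 0 were at that threshold.

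Vascular and stress lists held single genes at the unadjusted threshold. Over all tested genes, 49.8% were lower and 50.2% higher, with 0.636% lower and 0.612% higher at an unadjusted p under 0.05. Of 9 endothelial genes 8 were lower, 1 of them at that threshold. It was Slco1a4, an organic anion transporter of the blood-brain barrier, at 53.6 to 61.3 CPM on placebo and 45.96 to 55.9 CPM on anle138b (log2 fold change -0.19, SE 0.07). Of 8 mural cell genes 6 were lower and 1 was at that threshold, Tagln, a smooth muscle actin-binding protein, at -0.34 (SE 0.14). Of 12 chaperone and unfolded protein response genes 10 were higher and 1 was at that threshold, Atf4, a stress-induced transcription factor, at 0.13 (SE 0.06). Of 10 glucocorticoid-responsive genes 9 were lower and 0 were at it. Homeostatic microglia genes were 4 higher and 6 lower, with a median of -0.01 and 0 at that threshold. No gene of the interneuron, thalamus, striatum, neocortex, blood or meningeal fibroblast lists was at it, beside 1.25% of all genes.

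Clock genes were mostly lower on anle138b, 10 of 13 with a median of -0.15, beside 49.8% of all genes. Cry1, a repressor of the clock, was 13.0 to 14.5 CPM on placebo and 9.77 to 13.5 CPM on anle138b, with a log2 fold change of -0.22 (SE 0.09), and it was the only 1 of the 13 at an unadjusted p under 0.05, beside 0.636% of all genes. With the granule cell list as a covariate 3 of the 13 were lower at that threshold, Cry1, Per3 and Nr1d2, beside 1.24% of all genes. Leaving out placebo mouse 54 or 56, or anle138b mouse 62 or 63, left 0 of the 13. The time of day of tissue collection is not given in the sources used here. Of 25 oxidative phosphorylation genes 23 were higher, beside 50.2% of all genes, with a median of 0.05 and 0 at an unadjusted p under 0.05. Of 15 synaptic genes 8 were higher and 0 were at that threshold, and of 14 immediate early genes, which report recent neuronal activity, 8 were higher and 0 were at it.

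Transcripts of the proteins that anle138b is known to act on were at like levels on both chows. Of 12 genes of amyloid, prion and related aggregation-prone proteins 7 were higher, 0 were at an unadjusted p under 0.05, and the median log2 fold change was 0.01. App was 1648, 1608, 1627, 1771 and 1595 CPM in placebo mice 52 to 56 and 1735, 1822, 1516, 1591 and 1552 CPM in anle138b mice 60 to 64, with a log2 fold change of -0.01 (SE 0.07). Prnp, the prion protein gene, had 0.03 (SE 0.07). In the APPPS1ΔE9 mice at 10 months on anle138b App ran from 3522 to 4149 CPM.

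**Figure D5:**
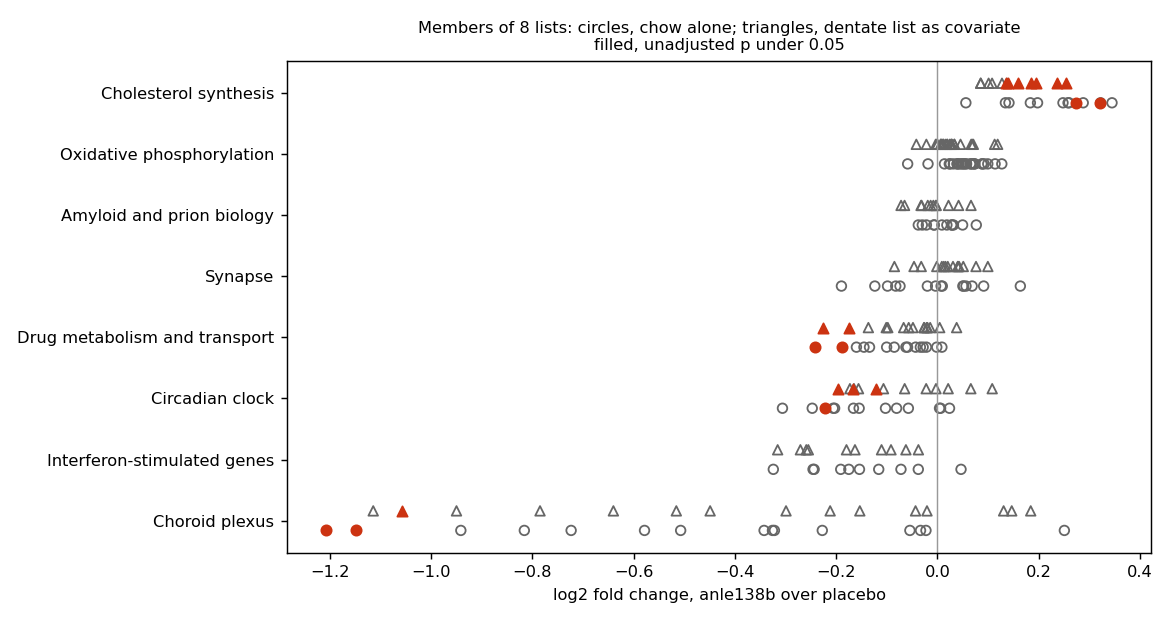
Each symbol is the log2 fold change of 1 list member, anle138b over placebo, circles without a covariate and triangles with the granule cell list as covariate, filled in red where the unadjusted p is under 0.05. The cholesterol synthesis genes all lie to the right of 0, with medians of 0.26 and 0.14, and most choroid plexus genes lie to the left.

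Among single genes, those whose values did not overlap between the chows and whose unadjusted p was under 0.05 included no member of the gene lists. Fxyd2, a regulator of the sodium pump, was 1.70, 1.69, 1.95, 1.64 and 1.42 CPM in placebo mice 52 to 56 and 2.70, 2.13, 2.03, 3.06 and 2.59 CPM in anle138b mice 60 to 64. Its log2 fold change was 0.57 (SE 0.15). Zfp69, a zinc finger gene, was 1.34 to 1.88 CPM on placebo and 0.898 to 1.26 CPM on anle138b, with -0.58 (SE 0.17). Gm13341, an annotated unprocessed pseudogene whose reads may be shared with other copies, had the largest higher value, 0.68 (SE 0.17). The other higher genes by the same rule were Riiad1, Gm49493, Gm10762, Ppp1r14b, Etfb, Mpv17l2, Tedc2 and Susd5, at log2 fold changes of 0.41 or less, and Etfb, a mitochondrial electron carrier, was 3.58 to 4.67 CPM on placebo and 4.79 to 5.47 CPM on anle138b. The other lower genes were 4930488L21Rik, Gm38387, Ankrd61, Gm37893, Hist3h2a, Coq10b, Cyp2u1, Usp3 and 9930104L06Rik. Usp3, a histone deubiquitinase, was 30.9 to 34.8 CPM on placebo and 29.4 to 30.4 CPM on anle138b, with -0.14 (SE 0.05). Since these genes were picked for groups that do not overlap, 45 (0.265%) in all, their separation is a description, and none passed the adjusted threshold.

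Whether the chow difference depended on age or genotype was tested with an interaction term. Against WT mice at 6 months (n = 4 on each chow), 0 of 17741 genes had an adjusted p under 0.1 (0%) and 327 (1.84%) an unadjusted p under 0.05. The smallest p-values were those of Ankrd61, 2700033N17Rik and Gh, and the last rests on the mice with hormone RNA named above, 10-month placebo mice and a 6-month anle138b mouse. The 6-month placebo mice are WT by title although their genotype label gives the transgene, and the title was followed. Against APPPS1ΔE9 mice at 10 months (n = 5 on placebo and 7 on anle138b), 0 of 17668 genes passed (0%) and 407 (2.30%) had an unadjusted p under 0.05. Gm6180, Gm13341 and Gm25219 had the smallest p-values there, with differences of log2 fold change of 1.65, 1.13 and -0.97.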

How the data were processed

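Hippocampal RNA of 38 mice was sequenced by the authors with the TruSeq mRNA protocol, aligned to mm10 with STAR and assigned to genes with HTSeq (intersection-nonempty). The deposited values are unnormalized read counts per gene. The annotation release and the strandedness of counting are not given in the sources used here. GENCODE M21 (GRCm38) gave symbols and coordinates for 48349 of 48709 genes. The 10 WT mice at 10 months (total counts 15847985 to 27273116) were tested with edgeR 4.0.16 in R 4.3.3 (filterByExpr with minimum count 10 and minimum total count 15, TMM normalization, robust quasi-likelihood test), and Benjamini-Hochberg adjusted p under 0.1 counted as past the threshold. DESeq2 1.42.0 and limma 3.58.1 were alternatives. CPM are TMM-normalized, and list scores are mean log2 CPM with a prior count of 2. Group means carry the SD over mice. The interaction fits added 6-month WT or 10-month APPPS1ΔE9 mice.

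The comparison, whose members the labels set, and the gene lists were chosen with earlier results of these data known. Named genes are list members, the 10 higher and 10 lower genes of largest fold change with an unadjusted p under 0.05, groups that do not overlap and at least 1 CPM, the 20 genes of largest within-group SD, the 10 highest and lowest loadings of 3 components, App, Prnp, sex-linked genes, and the 3 smallest p of each interaction. Covariates tried were Y-linked expression, the myelin, pituitary, choroid plexus and (added after seeing the data) granule cell lists. Other alternatives were size factors, no filter, lane 4 only, all 4 groups at 10 months in a single fit, a replicate block and each mouse left out. Some items are not reported here. The code was tested on simulated data.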

Additional observations from a re-analysis of the deposited data

Results flagged for a closer look

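In 66 tests of whether 1 of 5 mice stood far from the other 4, 3 values did so, and chance alone sets about 5% of such tests apart. The meningeal fibroblast list score of placebo mouse 52 was 4.44 log2 CPM, against 3.15 to 3.48 in the other 4 placebo mice. The immediate early gene score of placebo mouse 55 was 3.32, against 3.69 to 3.80. The plaque-associated microglia score of placebo mouse 55 was 1.70, against 1.91 to 1.99. Mouse 52 was also the mouse with the lowest total count and the highest Gh, Prl and Pomc. The causes were not tested.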

How the results depend on the processing

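The chow comparison gave 0 genes with an adjusted p under 0.1 under every alternative run except lane 4 alone, where mouse 56 was the only placebo mouse and was assumed to vary like the others. There 1 gene passed, Gm26825 (log2 fold change -6.54, adjusted p = 0.014). With each mouse left out in turn the count stayed at 0, with 162 to 453 genes at an unadjusted p under 0.05, the latter without mouse 55, against 212. That number was 602 without the filter, 429 with the myelin covariate, 623 with the pituitary covariate, 415 with the granule cell covariate (447 with Y-linked expression too) and 362 in lane 4. The number of genes with an interval inside ±1 was 15672, and 15283 to 15664 with a mouse left out.

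The age interaction had 2 genes with the replicate block, Gh and Prl, and 0 to 1 with a mouse left out, the 1 being Eno1b without replicate 4 of the anle138b-treated WT mice at 6 months. DESeq2 gave 2 genes for the genotype interaction, Prl and Pomc. Both sets are hormone genes of the mice described above. At an unadjusted p under 0.05 the age interaction had 970 genes without the filter and 249 to 589 with a mouse left out, and the genotype interaction had 1011 without the filter, 777 with the block and 260 to 677 with a mouse left out.

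Replicate numbers are only running numbers: deviations of same-numbered mice correlated at 0.389, -0.272, 0.569, 0.626 and 0.438, and not every mouse correlated best with its own number. The replicate block gave 0 calls for the chow comparison and 469 genes at an unadjusted p under 0.05. Within lane 4 the list medians of choroid plexus, interferon-stimulated and pituitary genes turned to 0.14, 0.18 and 0.25. The cause of these changes was not tested.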

Other observations

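Gm26825, a long non-coding RNA gene, was either present or nearly missing in single mice: 16.3, 9.41, 0.0367, 0.0431 and 13.2 CPM in placebo mice 52 to 56 and 0.123, 0.118, 0.0369, 0.161 and 0.255 CPM in anle138b mice 60 to 64. In the 8 WT mice at 6 months it ran from 0.0492 to 17.7 CPM. It was named after its values were seen.

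Gfap, the astrocyte filament, was 891 CPM in anle138b mouse 63 and 314 to 526 CPM in the other 9 mice. The same mouse had the highest Serpina3n, at 99.8 CPM against 54.1 to 70.9 CPM, and the highest Sqle and Insig1. All 8 tested reactive astrocyte genes were higher on anle138b, beside 50.2% of all genes, with 0 at an unadjusted p under 0.05. Their median log2 fold change was 0.19, and without mouse 63 it was -0.03. Among 10 interferon-stimulated genes 9 were lower, beside 49.8% of all genes, with a median of -0.16, which was 0.01 without mouse 52.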
